A study of Chlamydomonas reinhardtii with 9 samples.

Results

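The loci described here are those of the green alga Chlamydomonas reinhardtii whose transcript level stood apart at 0.5 nM methylmercury while it stayed close to the control at 0.05 nM. They number 121 of the 17737 loci counted, 96 lower and 25 higher at 0.5 nM. They were chosen from the measured levels, as CPM, read counts scaled to a common library size with TMM factors, which correct library totals for composition. A locus was taken when its mean over the 9 libraries was at least 2 CPM and its 0.05 nM mean lay between 13% below and 15% above the control mean. Its 0.5 nM mean had to be at least 1.4 or at most 0.71 of the control mean, with all 3 libraries at 0.5 nM above or below the other 6. These levels and ratios are therefore a description of the choice and not a test of it.

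All cells were wild type, strain CPCC11, and were held in artificial freshwater for 2 h without methylmercury (control, 3 libraries), with 0.05 nM (3 libraries) or with 0.5 nM (3 libraries). The series states that replicates are biological, and 15138888 to 20433375 reads per library were assigned to loci. Entries for reads aligned at more than 1 place came to 24.2%, 27% and 43.7% of assigned reads in control replicates 1, 2 and 3. At 0.05 nM they came to 19% to 21.6%, and at 0.5 nM to 20.8% to 23%. All controls thus lay above all exposed libraries, with control replicate 3 farthest. Such reads were not counted, and their part in the results was not tested. Without control replicate 3 the same conditions chose 112 loci, 80 of them among the 121. Without control replicate 1 they chose 121 loci, 69 of them among the original 121, and without control replicate 2 they chose 135, with 95 among the 121. Only the labels of the 0.05 nM samples name a sequencer and call the source a metal-exposed culture, so a separate handling of that group and its dose cannot be told apart. Levels are relative to all RNA of a culture, in which less RNA per cell and fewer cells making it cannot be told apart.

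Methylmercury is an organic form of mercury that crosses membranes and binds the thiol groups of cysteine and glutathione. Algae hold metals with glutathione and with the phytochelatins made from it, and proteins with exposed thiols are among the targets of mercury. Genes differ in the dose at which their transcripts leave the baseline level, and a pair of doses can only bracket that dose. The files and the RefSeq gene table of assembly version 5.5 pair 0 of these loci with a gene name or product, so no pathway can be assigned to them, and 4 are named by identifier below.

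Loci lower at 0.5 nM outnumbered those higher, and they had more reads per locus; CPM is not corrected for transcript length. Of the 12983 loci with a mean of at least 2 CPM, 3337 had a 0.05 nM level inside that window of 13% below to 15% above control. Within that window 2.88% of loci met the remaining conditions as lower and 0.749% as higher. Lower loci had a median of 48.5 CPM and higher loci one of 4.81 CPM, beside 20.6 CPM over all loci in the window. Only 3 of the 96 lower loci were under 5 CPM, against 13 of the 25 higher loci, and 19 lower loci and 1 higher locus reached 100 CPM. The median read count per library was 87.9 for the higher and 873 for the lower loci, so counting error weighs more on the higher loci.

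The chosen loci were a small share of all that stood that far from control at 0.5 nM. Among loci of at least 2 CPM, 1193 were at most 0.71 of control at 0.5 nM with no overlap with the other 6 libraries. The 96 lower loci are 8.05% of these, while 1092 lay below the window at 0.05 nM already and 5 lay above it. On the higher side 614 loci were at least 1.4 of control without overlap, and the 25 are 4.07% of them. The other 589 lay above the window at 0.05 nM. Libraries at 0.5 nM lay all below the other 6 for 10.9% of loci of at least 2 CPM and all above for 5.62%.

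**Figure D1:**
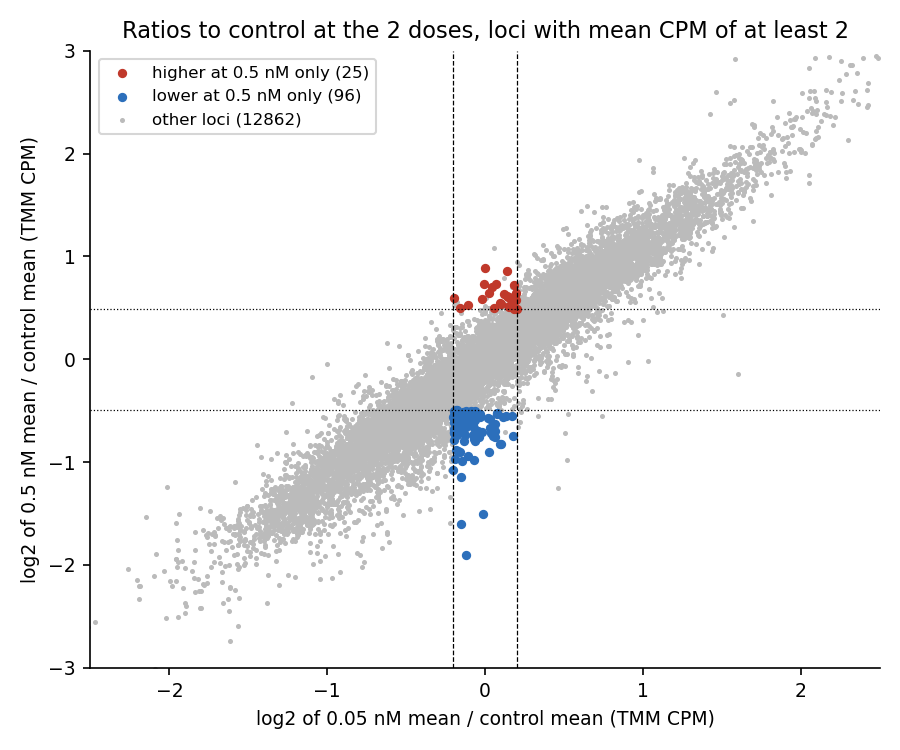
Each point is 1 locus with a mean of at least 2 CPM, with the log2 ratio of the 0.05 nM mean to the control mean across and that of the 0.5 nM mean upward. Dashed lines mark the window for 0.05 nM, dotted lines 1.4 and 0.71, and the 96 lower (blue) and 25 higher (red) loci fill 2 strips at the edges of a cloud along the diagonal; loci beyond the axes are not drawn.

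The 96 lower loci differed from control by modest amounts. Their median ratio of 0.5 nM to control was 0.65, with quartiles of 0.601 and 0.679 and a lowest value of 0.268. Ratios of at most 0.6 were found for 23 loci and of at most 0.5 for 5. Against 0.05 nM the median ratio was 0.692. Their summed level was 9683, 10408 and 9913 CPM in the controls, 9541, 9665 and 8821 CPM at 0.05 nM, and 6754, 7052 and 5497 CPM at 0.5 nM. The highest 0.5 nM library lay, at the median locus, at 0.845 of the lowest of the other 6. For 9 of the 96 loci that gap was under 5%, the closest being at 0.99992, so the groups nearly touched there.

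The lower locus with the largest change was Cre01.g019950, a locus of low level. It had 4.88, 4.73 and 3.45 CPM in the controls, 4.32, 4.74 and 2.95 CPM at 0.05 nM, and 1.26, 1.78 and 0.463 CPM at 0.5 nM. Its group means were 4.35 ± 0.785 CPM in controls, 4.004 ± 0.937 CPM at 0.05 nM and 1.17 ± 0.663 CPM at 0.5 nM (SD, n = 3 each). Replicate 3 was the lowest library in each group, and at 0.5 nM it rested on 7 reads, against 29 and 35 in the other libraries of that dose.

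Next came g9866. It had 98.1, 82.5 and 53.5 CPM in the controls, 86.7, 68.9 and 54.9 CPM at 0.05 nM, and 29.9, 32.6 and 14.5 CPM at 0.5 nM. Its means were 78.0 ± 22.6, 70.2 ± 15.9 and 25.6 ± 9.76 CPM in that order of doses (SD, n = 3 each), which put 0.5 nM at 0.329 of control. The controls and the 0.05 nM libraries overlapped widely, and replicate 3 was again lowest in every group.

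For the 25 higher loci the median ratio of 0.5 nM to control was 1.51, with quartiles of 1.44 and 1.56, and 0 of the 25 were doubled. Against 0.05 nM the median ratio was 1.39. Their summed level was 277, 298 and 297 CPM in the controls, 295, 305 and 331 CPM at 0.05 nM, and 402, 412 and 562 CPM at 0.5 nM. The lowest 0.5 nM library stood, at the median locus, at 1.10 of the highest of the other 6, and for 8 of the 25 loci that gap was under 5%.

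Cre17.g707350 had the largest ratio among the higher loci. It had 38.4, 51.4 and 53.0 CPM in the controls, 35.9, 49.4 and 57.5 CPM at 0.05 nM, and 63.6, 80.4 and 119.95 CPM at 0.5 nM. Its means were 47.6 ± 7.996, 47.6 ± 10.9 and 88.0 ± 28.9 CPM in that order of doses (SD, n = 3 each). Here replicate 1 was lowest and replicate 3 highest in every group, so the replicate numbers kept 1 order across all 3 groups.

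The second, g16278, was a locus of low level with 4.10, 4.35 and 5.10 CPM in the controls and 4.57, 5.59 and 4.73 CPM at 0.05 nM. At 0.5 nM it had 6.19, 8.39 and 9.99 CPM, from 143, 165 and 151 reads. The 0.5 nM mean of 8.19 ± 1.91 CPM (SD, n = 3) was 1.81 of the control mean of 4.52 ± 0.521 CPM (SD, n = 3).

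**Figure D2:**
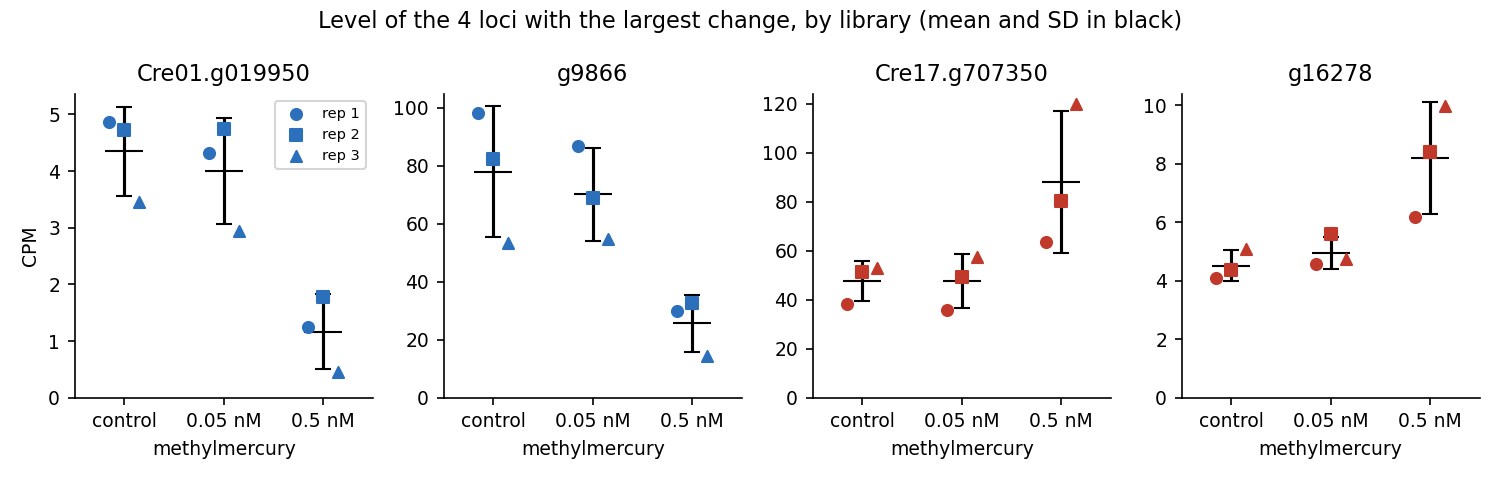
CPM (upward) of the 2 lower and the 2 higher loci with the largest change in control, 0.05 nM and 0.5 nM cultures, with a symbol for each replicate number and black bars for the mean ± SD of 3 libraries. The 0.5 nM symbols lie apart from the others in every panel, while control and 0.05 nM symbols overlap.

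Control and 0.05 nM levels were close by the choice, but they did not coincide. The 0.05 nM mean was below the control mean for 79 of the 96 lower loci, with a median ratio of 0.929, and above it for 19 of the 25 higher loci, with a median ratio of 1.09. Over all loci in the window 1696 of 3337 lay below 1. All 3 libraries at 0.05 nM lay below all 3 controls for 13 of the 96 lower loci (13.5%), beside 5.48% of loci in the window and 31% of all loci of at least 2 CPM. For 0 of the 25 higher loci did they lie all above, beside 4.29% in the window and 30.9% of all. The choice used this contrast, so these counts are given without a test.

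The precision at the lower dose was limited. In a limma fit across all tested loci, the 95% interval of the log2 ratio of 0.05 nM to control had a median half-width of 0.29 for the lower and 0.39 for the higher loci. Because the choice kept that ratio near 1, such an interval was likely to hold 0 in advance. The interval held 0 for 94 of the 96 and for 25 of the 25. It also reached down to the limit of 0.71 (-0.49 on the log2 scale) for 16 lower loci, and up to the limit of 1.4 (0.49) for 14 higher loci. For these loci a change at 0.05 nM as far as the limit lies within the interval, while the estimated change of the same locus at 0.5 nM lay within it for 1 of the 96 lower and 5 of the 25 higher loci. These intervals leave out the replicate number. With it as a block the median half-widths were 0.20 and 0.35, the interval held 0 for 82 of the 96 and 25 of the 25, and it reached the limit for 3 lower and 8 higher loci.

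The tests across all loci stand beside these values as description, since the choice used the same contrasts. At 0.5 nM against control the quasi-likelihood test of edgeR, adjusted by Benjamini and Hochberg's method, called 60.3% of 14778 loci, 31.6% as higher and 28.7% as lower. It called 96 of the 96 lower loci lower and 23 of the 25 higher loci higher. At 0.05 nM against control it called 52.2% of all loci, 27.2% as higher and 25% as lower, and of the 121 loci it called 1, as lower. With the replicate number as a block it called 6 of the 121, all as lower, beside 4500 of all loci as lower and 4900 as higher.

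The direct comparison of 0.5 nM with 0.05 nM is the one that bears on "only at the higher dose", and it called few loci. It called 0.832% of all loci, 0.819% as lower and 0.0135% as higher. Of the 96 lower loci it called 24, and of the 25 higher loci it called 0 (21 had an unadjusted p under 0.05). DESeq2 called 4 of the 25, beside 47 of all loci as higher. With the replicate number as a block the counts were 93 and 16, but that fit also called more of all loci, 1041 as lower and 287 as higher. Leaving out 1 library gave 0 calls among the 121 for control replicates 2 and 3, for 0.5 nM replicates 1 and 3 and for each library at 0.05 nM, while 58 were called without control replicate 1. For the remaining loci a difference between the doses was thus not established by this test, which does not show that the doses acted alike.

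Values near the limits showed how finely the choice was drawn. The 2 lower loci just inside the limit had 0.5 nM to control ratios of 0.70999 and 0.7093, and the 2 just outside, otherwise meeting the conditions, had 0.7112 and 0.7114. On the higher side the 2 just inside had ratios of 1.4031 and 1.4033, and the 2 just outside 1.387 and 1.375. Without the condition on overlap there would be 109 lower and 54 higher loci.

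The libraries at 0.5 nM did not contribute alike, as the plot of levels by library shows. The median ratio of the 96 lower loci to the control mean was 0.663 in 0.5 nM replicate 1, 0.707 in replicate 2 and 0.544 in replicate 3. Replicate 3 alone was past 0.71 for 95 of the 96 loci, replicate 1 for 68 and replicate 2 for 51. Without replicate 3 the mean of the other libraries at 0.5 nM was past 0.71 for 62 of the 96. For the 25 higher loci the medians were 1.402, 1.358 and 1.646 in replicates 1, 2 and 3, and 15 stayed at 1.4 or above without replicate 3.

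**Figure D3:**
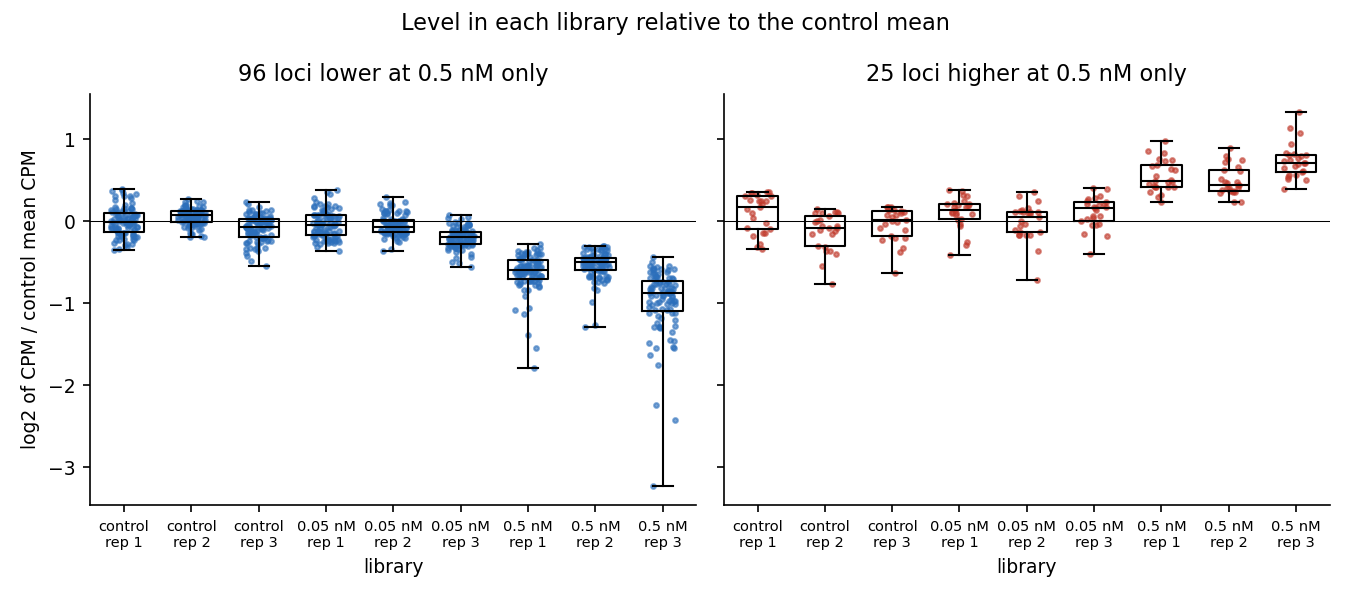
Log2 ratio of CPM to the control mean (upward) in each of the 9 libraries, ordered control, 0.05 nM and 0.5 nM, for the 96 lower loci (left) and the 25 higher loci (right); points are loci and boxes give quartiles, with whiskers to the extremes. The boxes of the 0.5 nM libraries lie apart from 0, with replicate 3 farthest, while among the others 0.05 nM replicate 3 lies lowest for the lower loci, with its quartiles at 0.827 and 0.916 of control.

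Libraries were also read for loci chosen without them. The conditions were applied to 8 libraries, and the left-out library was then read for the loci so chosen. The control and 0.05 nM libraries it was read against are those that the conditions used, so the reading is not independent of the choice, and no value for loci without a change chosen in this way was computed. Without 0.5 nM replicate 1, 117 lower loci were chosen. In replicate 1 itself their median was 0.694 of control, and 103 of them (88%) lay below all control and 0.05 nM libraries, beside 22.3% of all 12902 loci of at least 2 CPM and 18.9% of those in the window. Without 0.5 nM replicate 2, 140 were chosen, their median in replicate 2 was 0.734, and 116 (82.9%) lay below, beside 19.8% and 17.5%. Without replicate 3, 57 were chosen, their median in replicate 3 was 0.52, and 56 (98.2%) lay below, beside 27.8% and 25.2%. The median was past 0.71 in replicates 1 and 3 and not in replicate 2.

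The higher loci were read in the same way. Without 0.5 nM replicate 1, 49 were chosen, with a median of 1.18 in that library, and 24 (49%) lay above all control and 0.05 nM libraries, beside 20.6% of all loci and 16.4% of those in the window. Without replicate 2, 58 were chosen, with a median of 1.21, and 26 (44.8%) lay above, beside 17.8% and 15.8%. Without replicate 3, 26 were chosen, with a median of 1.47, and 20 (76.9%) lay above, beside 20.5% and 22.9%. In replicates 1, 2 and 3 so read, 10 of 49 (20.4%), 10 of 58 (17.2%) and 16 of 26 (61.5%) were past 1.4. Over all loci of at least 2 CPM these shares were 27%, 25.6% and 25.6%, and over loci in the window 4.06%, 1.32% and 5.65%. In replicates 1 and 2 the loci so chosen thus passed 1.4 less often than all loci, though more often than those in the window.

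**Figure D4:**
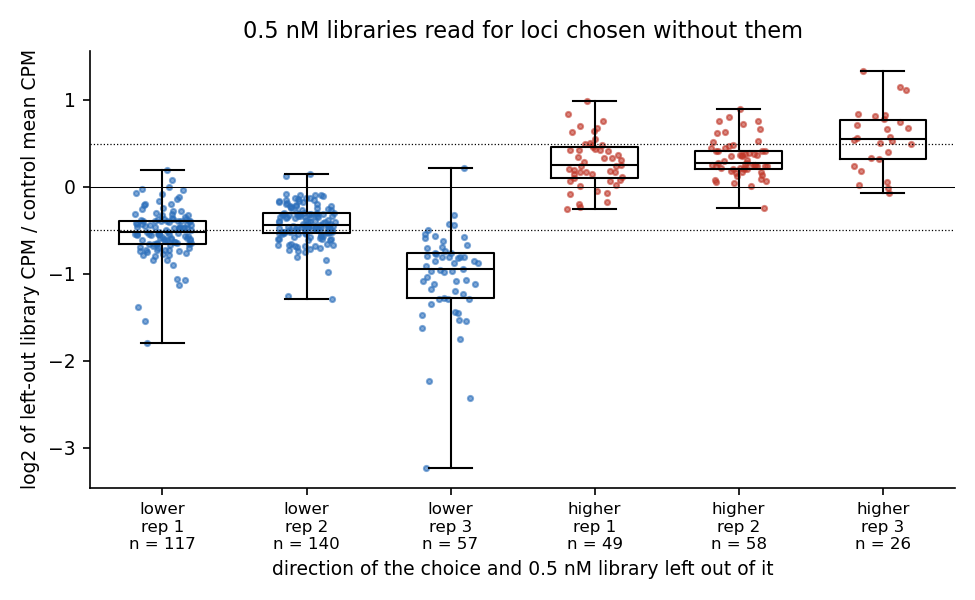
Log2 ratio of a 0.5 nM library to the control mean (upward) for loci chosen without that library, for the lower (blue) and higher (red) choices and each replicate left out; points are loci, boxes give quartiles with whiskers to the extremes, and dotted lines mark 1.4 and 0.71. Nearly all lower loci lie under 0, and most higher loci lie between 0 and the dotted line when replicate 1 or 2 is read.

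The same reading was made for closeness to control at 0.05 nM. For lower loci chosen without 0.05 nM replicate 1, the median of that library was 0.922 of control, and 53 of 91 lay within the window, beside 25.4% of all loci. For replicate 2 the median was 0.958 and 64 of 82 lay within, beside 26.4%. For replicate 3 the median was 0.827 and 46 of 145 lay within, beside 24.6%. Higher loci were within the window for 9 of 46 (19.6%), 13 of 25 (52%) and 10 of 40 (25%), with medians of 1.249, 1.083 and 1.240 in replicates 1, 2 and 3. In replicates 1 and 3 that was near or under the share of all loci. At or above 1.4 were 9 of 46, 4 of 25 and 11 of 40 higher loci, beside 24.1%, 21.9% and 23.7% of all loci. At or below 0.71 were 3 of 91 (3.3%), 1 of 82 (1.22%) and 15 of 145 (10.3%) lower loci, beside 21.6%, 21.8% and 23.2%. Over loci in the window, 0.94% to 3.89% were at or above 1.4 and 2.43% to 2.61% at or below 0.71. The higher loci (19.6%, 16% and 27.5%) thus passed 1.4 more often than loci in the window in each replicate. The lower loci passed 0.71 more often than loci in the window in replicates 1 and 3, and less often in replicate 2. Above control were 42 of 46, 17 of 25 and 37 of 40 higher loci, and below it 61 of 91, 52 of 82 and 142 of 145 lower loci. Left-out controls lay within the window of the other controls for 43.7% to 65.8% of all loci. For loci chosen without control replicates 1, 2 and 3 these shares were 26.3%, 52.8% and 50% (higher) and 51%, 67.7% and 62.5% (lower). A single library scatters more than a mean of 3, and the part of that scatter in these counts was not tested.

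Within groups the lower loci shared an order of libraries. The conditions did not name an order, but they used the 0.5 nM mean, which a low replicate 3 pulls down. At 0.5 nM 62 of the 96 loci stayed past the ratio limit without replicate 3. The 57 lower loci chosen without it had a median ratio to control of 0.675 in choosing and 0.52 in replicate 3. How much of the order at 0.5 nM came from the choice was not tested. Replicate 3 was the lowest library for 53 of 96 loci in the controls, 70 of 96 at 0.05 nM and 88 of 96 at 0.5 nM. Over all loci of at least 2 CPM, which were not chosen by those conditions, these shares were 35.5%, 31.7% and 43.3%. The median deviation of replicate 3 from its group mean over the 96 loci was -0.06 in controls, -0.09 at 0.05 nM and -0.25 at 0.5 nM on the log2 scale. Replicate 2 was lowest for 5, 8 and 2 of the 96. Besides the fit with the replicate block given above, a run without replicate 3 of every group was added after seeing the data. In it 56 of the 96 were chosen again, and edgeR's test called 85 of the 96 as lower at 0.5 nM against control. Between the doses it called 0 of the 96, whose median log2 change was -0.47, against -0.53 with all libraries. That run also has fewer libraries, so the part of the shared order in the difference between the doses was not tested apart from that loss.

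**Figure D5:**
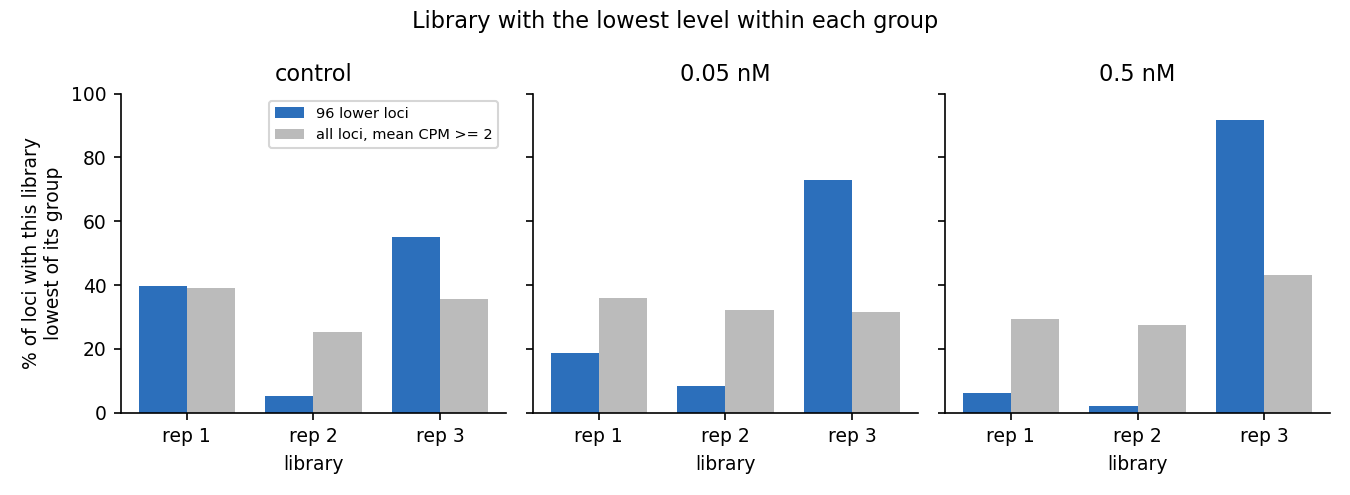
Share of loci (upward, in percent) for which each library was the lowest of its group, in controls, at 0.05 nM and at 0.5 nM, for the 96 lower loci (blue) and all loci of at least 2 CPM (grey). Replicate 3 leads among the lower loci in all 3 groups, by most at 0.5 nM (91.7%).

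RefSeq placed 97 of the 121, 78 lower and 19 higher, on 16 chromosomes. Identifiers of the g type, which that table does not hold, made up 18.8% of the lower and 24% of the higher loci, beside 22.8% of all loci of at least 2 CPM.

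The authors' deposited table gives its own fold change and false discovery rate from the same libraries. At 0.5 nM against control the authors' deposited table has 25.4% of all loci higher and 23.1% lower at a rate under 0.05, and among these loci 22 of the 25 higher and 96 of the 96 lower. At 0.05 nM against control the authors' deposited table has 21.4% of all loci higher and 19.9% lower, and 0 of the 121. Its median signed fold at 0.5 nM is 1.5 for the higher and -1.54 for the lower loci, where a minus sign marks a lower treated level.

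Which loci count as moved only at the higher dose depended on the scaling. With library totals alone the median locus of at least 2 CPM shifted by 0.26 (log2) at 0.05 nM and 0.29 at 0.5 nM against control. On that scale all 96 lower loci stayed below control at 0.5 nM, at a median ratio of 0.794, but 0 of the 96 were below it at 0.05 nM, where the median ratio was 1.10. A change of scaling moves all loci of a library alike. The TMM factors were 0.827 to 0.946 in controls, 1.02 to 1.08 at 0.05 nM and 0.998 to 1.13 at 0.5 nM. Which scale is nearer to the RNA of the cultures was not tested. With library totals the 25 higher loci stood at 1.82 at 0.5 nM and 1.28 at 0.05 nM, and 22 of them were above the window. Applied on that scale, the same conditions chose 130 loci, of which 14 are among the 121.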

How the data were processed

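RNA was measured in 9 libraries. TRI Reagent extraction and a stranded mRNA kit are given in the labels' protocols. The authors deposited raw read counts per locus, with reads aligned by TopHat2 and counted by HTSeq per the submitters' processing notes. The sources used here give no versions, build, annotation or strand setting, so overlapping genes may share reads. Unassigned reads were left out, of which reads outside loci came to 1.02% to 1.24% and ambiguous ones to 0.264% to 0.331%. Reads at more than 1 place were not counted. Their entries came to 24.2%, 27% and 43.7% of assigned reads in control replicates 1, 2 and 3, and to 19% to 23% in the exposed libraries. The authors' deposited table adds the same counts (9 of 9 columns equal), rounded normalized values (a score, not tested), a weighted difference, a signed fold score, p-values and FDR-corrected p-values.

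CPM used TMM factors over all loci. Loci kept by filterByExpr (14778) were fitted with edgeR 4.0.16 (quasi-likelihood, robust, group only, 9 libraries) in R 4.3.3, with Benjamini-Hochberg adjustment and a threshold of 0.05, two-sided; limma 3.58.1 gave 95% intervals on log2 CPM (prior count 2; added after seeing the data, as was their form with the replicate block), and DESeq2 1.42.0 was an alternative. Same-numbered replicates deviated together to differing degrees (correlations 0.104 to 0.630 over 9 pairs), so the fit with the replicate block is given where it moves a count. Correlations were 0.570 to 0.630 for replicate 1 and 0.104 to 0.211 for replicate 3. Replicate 2 of either dose did not match its own number best among the controls. Replicates of a group differed by more than counting noise.

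The loci and the rule were chosen with earlier results of these data known. With no names or sequences to use, the 2 higher and 2 lower loci with the largest change are named, and the planned lists by product could not be run.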

Additional observations from a re-analysis of the deposited data

How the results depend on the processing

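The choice gave 117 loci with DESeq2 size factors (81 of the 121 among them), 130 with library totals, 114 with TMM over filtered loci, 156 with no minimum level, 94 from 10 CPM and 163 with overlap allowed. It gave 32 with a window of 5% to either side, 285 with one of 20% below to 25% above, 5 with limits of 2 and 0.5, and 83 to 198 with 1 library left out (198 without 0.5 nM replicate 2, 185 without 0.05 nM replicate 3). Of the 96 lower loci, 54 to 96 were chosen again, and of the 25 higher loci 10 to 24. Without replicate 3 of every group, added after seeing the data, 152 were chosen, of which 66 are among the 121.

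For 0.5 nM against control, all loci called stayed within 1.5 times under every alternative run (8112 to 8964 with 1 library left out), and loci called among the 121 numbered 104 to 117 with 1 library left out, 93 without replicate 3 of every group, 110 with DESeq2 and 120 with the replicate block. Library totals, added after seeing the data, moved that count by over 1.5 times, to 56. The split of all calls was then 6707 higher and 2557 lower.

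For 0.5 nM against 0.05 nM, all loci called numbered 123, or 1328 with the replicate block, 653 with DESeq2, 55 with the groups compared alone, 0 with library totals and 0 to 383 with 1 library left out. Among the 121 these counts were 24, or 109, 80, 9, 0 and 0 to 58. Without replicate 3 of every group both were 0. Where a count was 0 with 1 library left out, 1254 to 2020 loci had an unadjusted p under 0.05 in edgeR's test, and 1530 did with library totals and 1285 without replicate 3 of every group.

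For 0.05 nM against control, all calls stayed within 1.5 times (6389 to 7828 with 1 library left out). Library totals split them into 5905 higher and 2080 lower. Among the 121, calls numbered 2 with DESeq2 size factors, 0 with no filter, 6 with the replicate block, 3 with DESeq2, 0 with the groups compared alone, 6 with library totals (all higher), 0 to 5 with 1 library left out and 0 without replicate 3 of every group.

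The named loci kept their direction at 0.5 nM under every alternative run, and 104 of 118 values kept their side of the threshold. Those 118 leave out the run with the groups compared alone and values for which DESeq2 gave no adjusted p. The replicate block changed no other count of calls by over 1.5 times. With it, also added after seeing the data, 107 of the 121 intervals at 0.05 nM held 0, against 119 without it. The causes of these differences were not tested. Depth limits the 13 higher and 3 lower loci under 5 CPM most.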

Other observations

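Read in left-out controls, the loci chosen as lower without control replicate 1 had a median of 1.01 in that library relative to the other controls, and 5 of 102 were at or below 0.71 there. For control replicates 2 and 3 the medians were 1.09 and 0.958, with 0 of 99 and 3 of 88 at or below 0.71. Loci chosen as higher had medians of 1.04, 0.95 and 0.911 in control replicates 1, 2 and 3, and 4 of 19, 1 of 36 and 0 of 24 were at or above 1.4.

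By chromosome, the lower loci placed by RefSeq were most numerous on chromosome 7, with 9 of 648 loci of at least 2 CPM. Chromosome 11 held 4 among 160 such loci. Of the 19 placed higher loci, 5 lay on chromosome 17, which holds 653 loci of at least 2 CPM. RefSeq placed 9681 loci of at least 2 CPM in total. Chromosome 12, with the most of them (1133), held 7 lower loci. The chromosomes named were picked from these counts, and an uneven spread was not tested.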
